A study of Homo sapiens with 9 samples.

Results

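ADAM28 and ADAMDEC1 are neighbouring genes of the ADAM family, membrane-bound or secreted zinc proteases with a disintegrin domain, and they are described here with 7 relatives: ADAM8, ADAM9, ADAM10, ADAM15, ADAM17, ADAM19 and ADAMTS1. These 9 genes were picked by symbol out of the 57820 genes of the expression tables. ADAM28 and ADAMDEC1 were chosen because they were higher with RBM5 overexpression, and ADAMTS1 because it was higher in the RBM5 knockout, so those contrasts of these 3 genes are given as descriptions without a test. 8 of the 9 genes had counts, and ADAM19 was listed at 0 in every library.

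RNA of MOLM13 was sequenced after removal of ribosomal RNA. MOLM13 is an established acute myeloid leukemia line with a rearranged KMT2A (MLL) gene and an internal tandem duplication of FLT3. RBM5 OE cells carried an RBM5 cDNA, delivered by a lentiviral vector. RBM5 KO cells carried an sgRNA against RBM5 (RBM5-sg1) with Cas9. CTRL cells carried a non-targeting sgRNA (sgNT). Each group had 3 biological replicates, giving 9 libraries with 25522952 to 27871988 expected counts. The RBM5 KO cells were a transduced population made with a single guide, and the 9 libraries hold no empty cDNA vector, so the vector and the added RBM5 cannot be told apart in RBM5 OE. The comparisons asked which genes followed the loss or the excess of RBM5, an RNA-binding splicing factor.

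ADAM proteases cut the outer parts of membrane proteins close to the cell surface, a process called shedding that releases cytokines, growth factors, receptors and adhesion molecules. ADAM10 and ADAM17 are the main sheddases of blood cells. ADAM8, ADAM28 and ADAMDEC1 are known above all from leukocytes, and ADAMDEC1 from macrophages and dendritic cells. ADAMTS1 belongs to a secreted branch with thrombospondin repeats that cleaves matrix proteoglycans such as versican.

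The targeted gene followed the labels. RBM5 was at 379.8, 414.3 and 415.6 CPM (read counts scaled by TMM library size) in RBM5 OE, against 122.3, 116.9 and 112.7 CPM in CTRL, a 3.44-fold higher level (log2 fold change 1.78, SE 0.07, edgeR adjusted p = 4.11e-08). It was at 70.5, 73.9 and 79.4 CPM in RBM5 KO, 1.57-fold lower than in CTRL (log2 fold change -0.65, SE 0.08, edgeR adjusted p = 0.00692). All 10 myeloid identity genes checked had a mean above 1 TPM (transcript abundance scaled by gene length and library). Their summed level was 1790 to 1850 TPM in RBM5 OE, 2970 to 3350 TPM in RBM5 KO and 2370 to 2510 TPM in CTRL, and LYZ, which encodes lysozyme, led this sum. The other 9 genes summed to 1300 to 1350 TPM in RBM5 OE, 1110 to 1280 TPM in RBM5 KO and 1230 to 1290 TPM in CTRL. Macrophage and dendritic cell markers summed to 79.8 to 88.2 TPM in RBM5 OE, 102 to 158 TPM in RBM5 KO and 103 to 115 TPM in CTRL. Of the 12 genes, 2 had a mean above 1 TPM, and MRC1 and CLEC9A were at 0 in all libraries. CD68 made up nearly all of that sum, and the other 11 genes summed to 4.08 to 4.95 TPM in RBM5 OE, 1.49 to 3.85 TPM in RBM5 KO and 1.46 to 4.2 TPM in CTRL. The part of these markers in the results on the members was not tested. The RBM5 KO replicate 1 and CTRL replicate 3 libraries stood apart from their groups: 21.1% of all 14218 genes tested were lowest of their group in both, and ADAM8, ADAM17, ADAM28 and ADAMTS1 were among them. Where those libraries changed the call of a member, the value is given with and without them. They were singled out by their values in these same data, so leaving them out tends to lower the spread within groups. Adjusted p-values without them are therefore descriptions only.

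In TPM, which corrects for gene length, the order of the family differed between groups. In RBM5 OE, ADAM9 (41.0 ± 1.38 TPM, SD, n = 3) and ADAM15 (40.8 ± 1.61 TPM) shared the top with overlapping libraries, and ADAMTS1 (2.65 ± 0.368 TPM) was the lowest member with counts, under ADAM28 (3.63 ± 0.514 TPM) and ADAMDEC1 (3.95 ± 0.493 TPM). In RBM5 KO, ADAMTS1 (28.4 ± 5.46 TPM) overlapped ADAM9 (31.0 ± 0.663 TPM), which in turn overlapped ADAM10 (32.1 ± 1.78 TPM). In CTRL, ADAM15 (51.1 ± 7.23 TPM) was the most abundant member. ADAM9 (34.5 ± 5.93 TPM) and ADAM10 (30.3 ± 4.24 TPM) followed there with overlapping libraries, and then ADAM17 (13.5 ± 1.58 TPM). ADAMTS1 (8.72 ± 1.46 TPM) and ADAM8 (5.3 ± 2.4 TPM) also overlapped in CTRL, and ADAM28 (0.497 ± 0.27 TPM) and ADAMDEC1 (0.443 ± 0.101 TPM) were near the bottom and could not be separated. The summed TPM of the members was 146 to 154 in RBM5 OE, 159 to 179 in RBM5 KO and 134 to 149 in CTRL. ADAM8, ADAM28 and ADAMDEC1 together made up 13.2% to 16.2% of that sum in RBM5 OE, 4.34% to 8.01% in RBM5 KO and 2.41% to 6.75% in CTRL. The share of ADAMTS1 was 1.51% to 1.94% in RBM5 OE, 15.0% to 19.5% in RBM5 KO and 4.8% to 7.49% in CTRL.

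**Figure D1:**
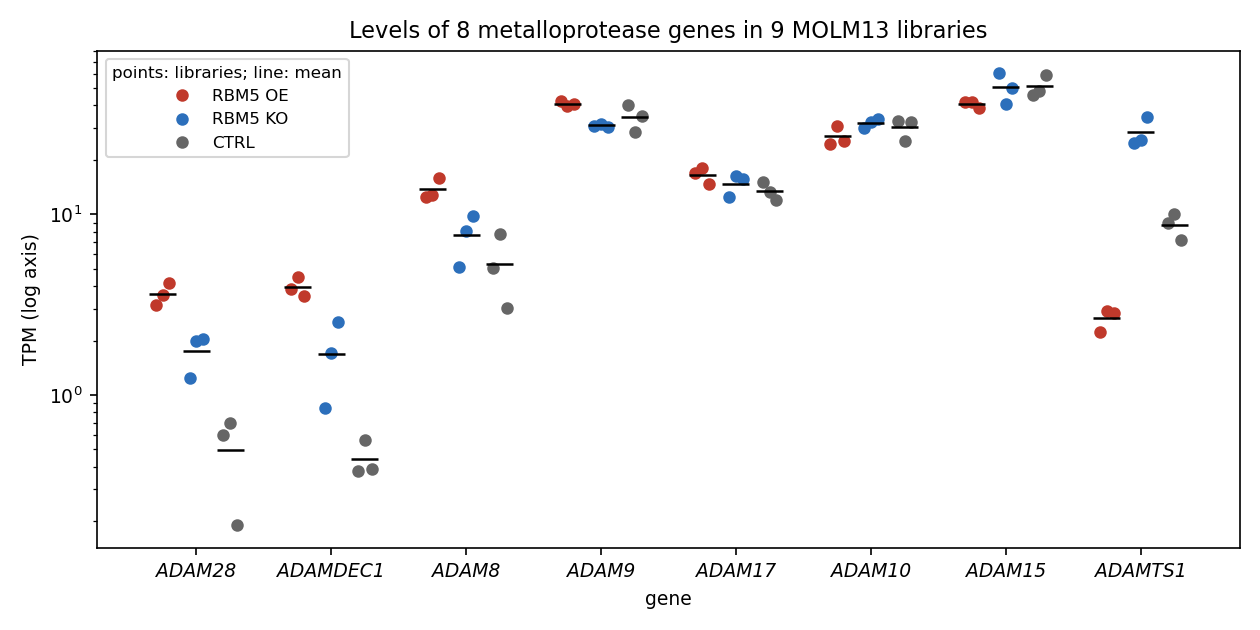
TPM (log axis) of the 8 members with counts, with 1 point for each library and a line at the group mean. RBM5 OE stands left, RBM5 KO in the middle and CTRL right within each gene. ADAM28 and ADAMDEC1 are highest in RBM5 OE, ADAMTS1 is highest in RBM5 KO and lowest in RBM5 OE, and ADAM9, ADAM10, ADAM15 and ADAM17 stay between 12.0 and 60.2 TPM in all 9 libraries.

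ADAM28 encodes an ADAM of lymphocytes and other blood cells that exists in membrane-bound and secreted forms. It is listed as ENSG00000042980.8 at chr8:24151582-24216527 on the plus strand of GRCh37. Its level was 5.96, 6.10 and 6.60 CPM in RBM5 OE, 0.914, 3.32 and 2.47 CPM in RBM5 KO, and 0.863, 1.09 and 0.491 CPM in CTRL. All RBM5 OE libraries were above all others. In CPM, RBM5 KO replicate 1 lay among the CTRL libraries, whereas the other RBM5 KO libraries lay above them. In TPM the 2 groups did not overlap, at 1.24, 1.99 and 2.04 in RBM5 KO and 0.6, 0.7 and 0.19 in CTRL. RBM5 OE was 7.62-fold higher than CTRL (log2 fold change 2.93, SE 0.25) and 2.78-fold higher than RBM5 KO (1.48, SE 0.37), the contrasts on which the gene was chosen. RBM5 KO against CTRL, which shares the CTRL libraries, had a log2 fold change of 1.45 (SE 0.49, 95% interval 0.35 to 2.55), with an edgeR adjusted p of 0.176. Without RBM5 KO replicate 1 this became 1.82 (SE 0.36, edgeR adjusted p = 0.0141). Without both RBM5 KO replicate 1 and CTRL replicate 3 it was 1.56 (SE 0.34, edgeR adjusted p = 0.00223).

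ADAMDEC1 encodes a secreted, shortened ADAM-like protease (decysin). It is ENSG00000134028.10, at chr8:24241798-24263526 on the same strand, and 25270 bp separate the end of ADAM28 from its start. Its level was 6.51, 7.16 and 6.37 CPM in RBM5 OE, 1.39, 3.17 and 3.64 CPM in RBM5 KO, and 0.706, 1.09 and 0.718 CPM in CTRL. The 3 groups did not overlap, in the order RBM5 OE, RBM5 KO, CTRL, and RBM5 KO replicate 1 was again the lowest of its group. RBM5 OE was 7.95-fold higher than CTRL (log2 fold change 2.99, SE 0.22) and 2.44-fold higher than RBM5 KO (1.29, SE 0.30), again the contrasts used for the choice. RBM5 KO against CTRL, which shares the CTRL libraries, had a log2 fold change of 1.70 (SE 0.40, 95% interval 0.80 to 2.60) and an edgeR adjusted p of 0.0628. That contrast was called by DESeq2 (1.70, adjusted p = 0.00494) and by edgeR without RBM5 KO replicate 1 (2.02, SE 0.30, adjusted p = 0.00382), and over all alternatives the adjusted p ran from 0.000185 to 0.25.

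These levels rest on few reads. ADAM28 had 163, 173 and 174 expected counts in RBM5 OE, 25, 90 and 67 in RBM5 KO, and 22, 28 and 13 in CTRL. ADAMDEC1 had 178, 203 and 168 in RBM5 OE, 38, 86 and 99 in RBM5 KO, and 18, 28 and 19 in CTRL. The ratio of ADAMDEC1 to ADAM28 counts was 0.966 to 1.17 in RBM5 OE, 0.956 to 1.52 in RBM5 KO and 0.818 to 1.46 in CTRL, and these ranges overlapped among the 3 groups. In bulk RNA a change in the number of cells that express a gene and a change in RNA per cell cannot be told apart.

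The rest of the locus was nearly silent. 10 genes of the tables lie within 500000 bp of ADAM28 or ADAMDEC1, and 3 of them had counts. The other one was RP11-624C23.1 (annotated as ADAM7-AS1), a long noncoding RNA gene on the minus strand that spans ADAMDEC1 and 63201 bp of ADAM28. It had 2, 7 and 3 counts in RBM5 OE, against 0 in each RBM5 KO and CTRL library, where a count of 0 allows up to 3 counts or 0.108 to 0.118 CPM. The tables count without strand, so its reads and those of the 2 genes it spans cannot be told apart where exons overlap. ADAM7, an ADAM gene of the epididymis that starts 146861 bp from ADAM28, and STC1, which encodes a secreted glycoprotein hormone, were at 0 in all libraries.

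**Figure D2:**
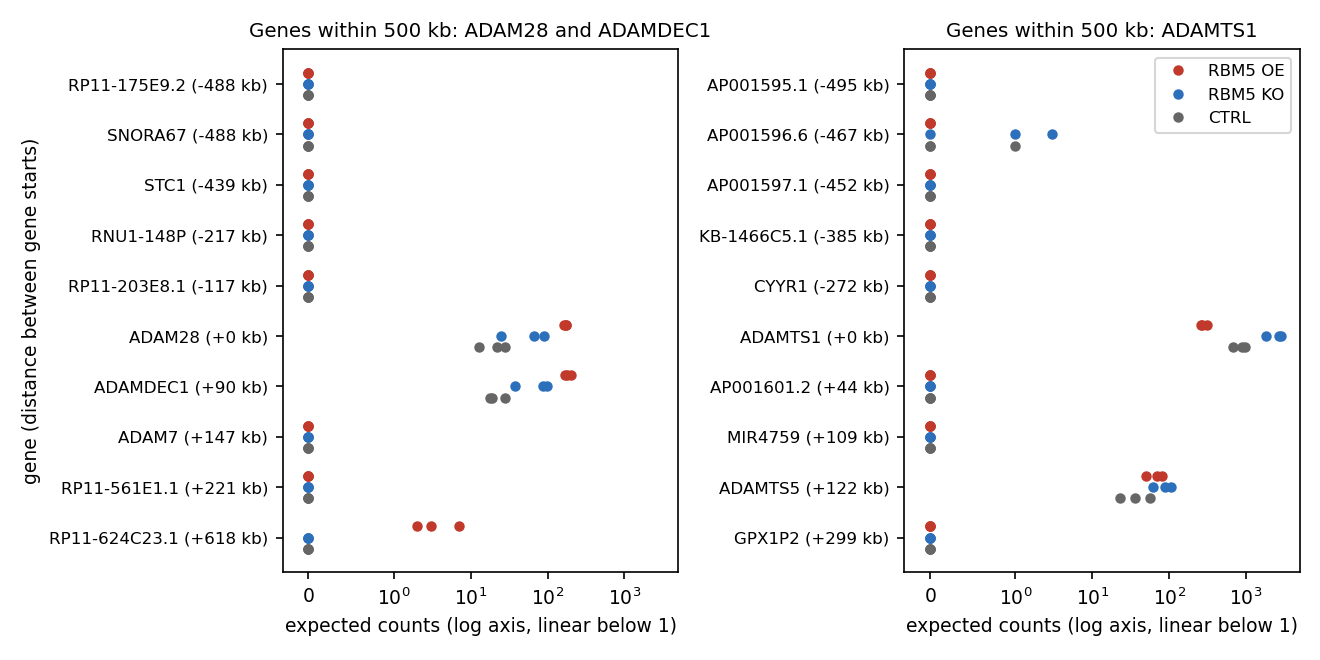
Expected counts (log axis, linear below 1) of the genes within 500000 bp of ADAM28 and ADAMDEC1 (left) and of ADAMTS1 (right), with the distance between gene starts in brackets and 1 point for each library. RP11-624C23.1 starts far from ADAM28 but runs back across both genes. ADAM28 and ADAMDEC1 stand at 163 to 203 counts in RBM5 OE, and only ADAMTS5 and ADAMTS1 have more than 3 counts on the right.

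ADAM8, a leukocyte ADAM that sheds adhesion molecules and is also called CD156a, is on another chromosome (ENSG00000151651.11, chr10:135075924-135090372, minus strand) and was not used in the choice. It stood at 22.2, 22.6 and 21.2 CPM in RBM5 OE, 7.93, 15.8 and 16.2 CPM in RBM5 KO, and 8.67, 9.72 and 6.50 CPM in CTRL. As with ADAM28, every RBM5 OE library was above every other library, and RBM5 KO replicate 1 lay among the CTRL libraries. ADAM8 was 2.66-fold higher in RBM5 OE than in CTRL (log2 fold change 1.41, SE 0.13, edgeR adjusted p = 1.69e-05), and this call held in each of the 18 alternatives, with adjusted p from 9.23e-28 to 0.00959. It was 1.65-fold higher in RBM5 OE than in RBM5 KO (0.72, SE 0.23, edgeR adjusted p = 0.0234). That call was lost in 5 of 21 alternatives: without RBM5 OE replicate 1 (adjusted p = 0.0624), without RBM5 OE replicate 2 (adjusted p = 0.0652) and with limma on the log2 TPM scales. RBM5 KO against CTRL gave 0.68 (SE 0.27, edgeR adjusted p = 0.242). Without RBM5 KO replicate 1 that value was 0.95 (SE 0.17, edgeR adjusted p = 0.00871), and without CTRL replicate 3 as well it was 0.80 (SE 0.14, edgeR adjusted p = 0.00023).

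The likeness of the 3 leukocyte genes was also read from the correlation of log2 CPM over the 9 libraries, which share 3 groups and are therefore not 9 independent points. ADAM28 and ADAMDEC1 were chosen for their high RBM5 OE values, on which these correlations also rest, so their likeness to each other is partly fixed by the choice. The ranks of ADAM8 and of the other genes rest on the same values and are descriptions only. Among 14753 other genes, ADAM8 ranked 3 in likeness to ADAM28 (Pearson r = 0.99), after the complement gene C3 (0.992) and BIRC3, which encodes an inhibitor of apoptosis (0.991). PLAG1, a zinc-finger transcription factor (0.986), and NFKBIZ, a nuclear regulator of NF-kB (0.985), completed the first 5, and ADAMDEC1 ranked 21 (0.975). The genes most like ADAMDEC1 were PLAG1 (0.981), PCNXL2 (0.98), C3 (0.979), the transcription factor gene NFE2L3 (0.978) and MIR146A (0.977). ADAM28 ranked 7 (0.975) and ADAM8 ranked 11 (0.97) in that order. C3, the leading partner, averaged 152 CPM in RBM5 OE, 53.7 CPM in RBM5 KO and 10.8 CPM in CTRL.

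**Figure D3:**
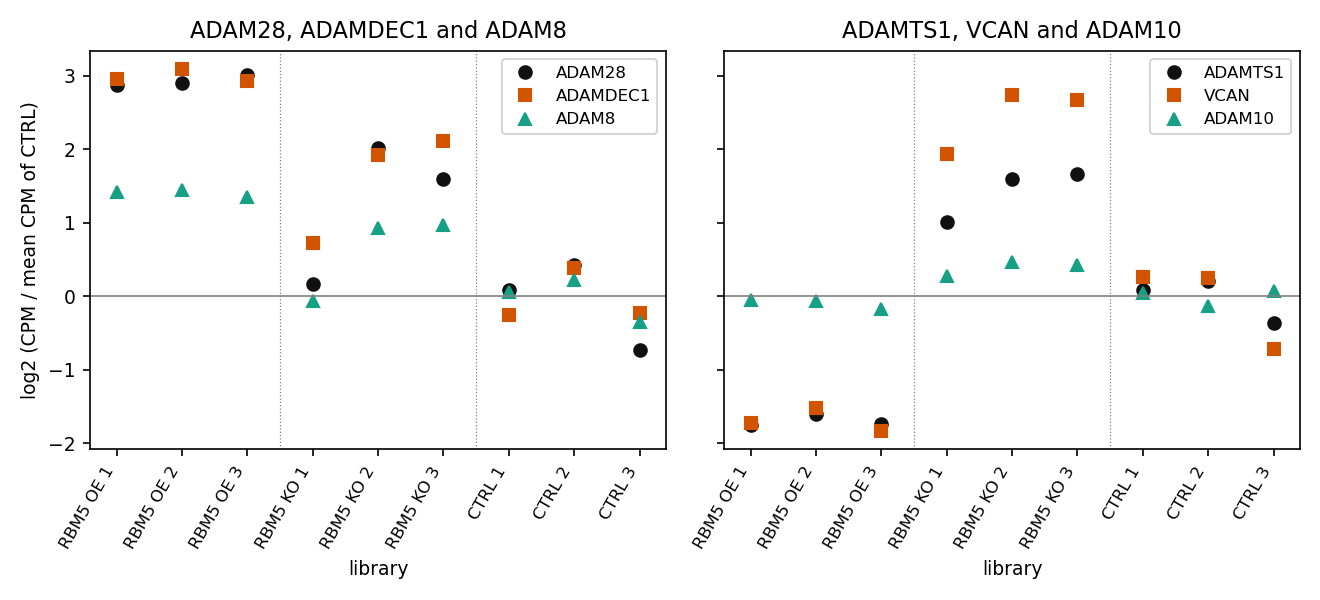
Log2 ratio of CPM to the mean CPM of CTRL in each library, with RBM5 OE, RBM5 KO and CTRL side by side. On the left, ADAM28, ADAMDEC1 and ADAM8 are high in the 3 RBM5 OE libraries, and RBM5 KO replicate 1 stands below the other RBM5 KO libraries. On the right, ADAMTS1 and VCAN are low in RBM5 OE and high in RBM5 KO, and ADAM10 stays nearer to its CTRL level.

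The upstream sequences of 2 members that were called in opposite directions in RBM5 OE, ADAM8 (higher) and ADAM15 (lower), are shown as the parts of the genome nearest to their starts. RefSeq promoters (GRCh38.p14) were matched for 5 of the 9 members (ADAM8, ADAM10, ADAM15, ADAM17 and ADAM19), and the 250 bases before the gene start were searched on both strands. Capitals mark the GC box GGGCGG and the box CCAAT, each on either strand. The ADAM8 window is chr10:133276869-133277118 on the minus strand and the ADAM15 window is chr1:155051066-155051315 on the plus strand.
ADAM8: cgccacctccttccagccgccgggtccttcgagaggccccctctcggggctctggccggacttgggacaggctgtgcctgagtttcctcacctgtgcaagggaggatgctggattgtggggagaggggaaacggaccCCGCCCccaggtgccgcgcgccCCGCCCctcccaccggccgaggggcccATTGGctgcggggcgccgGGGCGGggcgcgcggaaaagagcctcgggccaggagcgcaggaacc
ADAM15: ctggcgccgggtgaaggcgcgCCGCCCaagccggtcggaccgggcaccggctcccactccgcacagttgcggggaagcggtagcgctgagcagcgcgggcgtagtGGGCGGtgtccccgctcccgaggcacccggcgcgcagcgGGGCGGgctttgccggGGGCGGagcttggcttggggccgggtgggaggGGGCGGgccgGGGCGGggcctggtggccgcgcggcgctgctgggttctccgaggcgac
The ADAM8 window held 3 matches of GGGCGG and 1 of CCAAT, and its GC content was 73.6%. The ADAM15 window held 6 matches of GGGCGG and none of CCAAT, with a GC content of 79.6%. GGGCGG was found in 42.6% of 35116 promoter windows of this length and CCAAT in 32.0%. The AP-1 motif TGANTCA (6.57% of windows), the CRE motif TGACGTCA (1.65%), TATAAA (10.7%) and the NF-kB consensus (5.21%) had no match in the 5 windows, and that of ADAM19 had no match of any motif searched.

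ADAM10 and ADAM17, the main sheddases, and their relatives ADAM9 and ADAM15 had smaller fold changes than ADAM8. ADAM28 and ADAMDEC1 were chosen for their rise in RBM5 OE, so the size of their changes is not compared here. ADAM10, the alpha-secretase that also cuts Notch receptors (ENSG00000137845.10, chr15:58881008-59041990, minus strand), was at 76.6, 75.7 and 70.5 CPM in RBM5 OE, 95.9, 109.5 and 106.8 CPM in RBM5 KO, and 81.9, 72.3 and 83.1 CPM in CTRL. All RBM5 KO libraries were above all others. RBM5 OE and CTRL overlapped, with a log2 fold change of -0.09 (95% interval -0.26 to 0.08, edgeR adjusted p = 0.383). RBM5 KO was 1.31-fold higher than CTRL (0.39, SE 0.09), with an edgeR adjusted p of 0.0628, over the threshold. DESeq2 called it (0.39, adjusted p = 0.0094), as did edgeR without RBM5 KO replicate 1 (0.45, SE 0.09, adjusted p = 0.0151) and without CTRL replicate 3 as well (0.49, SE 0.10, adjusted p = 0.00079). On log2(TPM + 1) with limma the value was 0.09 (SE 0.12, adjusted p = 0.808), and in TPM the libraries overlapped, at 30.1, 32.6 and 33.5 in RBM5 KO and 25.4 to 32.9 in CTRL. RBM5 OE was 1.40-fold lower than RBM5 KO (-0.49, SE 0.08, edgeR adjusted p = 0.000724), a call not reached on log2(TPM + 1) with limma (-0.25, SE 0.12, adjusted p = 0.154). The effective length that the authors' quantification implies for ADAM10 (counts per TPM) was longer in RBM5 KO than in CTRL by 0.30 on the log2 scale, with no overlap of libraries. A shift as large was seen in 2.5% of 11461 genes, and its part in the result was not tested.

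ADAM17, the protease that releases TNF (ENSG00000151694.8, chr2:9628615-9696861, minus strand), was at 58.6, 60.7 and 51.4 CPM in RBM5 OE, 44.8, 57.1 and 56.9 CPM in RBM5 KO, and 53.8, 49.6 and 40.4 CPM in CTRL. The 3 groups overlapped. Its log2 fold change was 0.25 in RBM5 OE against CTRL (SE 0.11, edgeR adjusted p = 0.0802), 0.14 in RBM5 KO against CTRL (SE 0.14, edgeR adjusted p = 0.653) and 0.10 between RBM5 OE and RBM5 KO (SE 0.12, edgeR adjusted p = 0.536). RBM5 OE against CTRL was 0.33 (SE 0.11, edgeR adjusted p = 0.0455) without CTRL replicate 1 and 0.14 (SE 0.09, edgeR adjusted p = 0.211) without CTRL replicate 3. The gene body overlaps that of IAH1 on the other strand by 8058 bp, and IAH1 had 213.8 to 353.5 counts. Whether exons of the 2 genes overlap was not tested.

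ADAM9, a widely expressed membrane ADAM (ENSG00000168615.7, chr8:38854273-38962964, plus strand), was at 124.8, 113.5 and 112.2 CPM in RBM5 OE, 96.6, 95.5 and 89.3 CPM in RBM5 KO, and 115.2, 87.9 and 98.8 CPM in CTRL. CTRL overlapped both other groups. RBM5 OE was 1.25-fold higher than RBM5 KO with no overlap (log2 fold change 0.32, SE 0.10, edgeR adjusted p = 0.0209), a call lost without RBM5 KO replicate 3 (0.28, adjusted p = 0.0721) or RBM5 OE replicate 1 (0.27, adjusted p = 0.087). Against CTRL, the log2 fold change was 0.22 in RBM5 OE (SE 0.09, edgeR adjusted p = 0.0902) and -0.10 in RBM5 KO (SE 0.11, edgeR adjusted p = 0.681). RBM5 OE against CTRL was 0.31 (SE 0.09, edgeR adjusted p = 0.0204) without CTRL replicate 1, the highest of its group, 0.12 (SE 0.08, edgeR adjusted p = 0.284) without CTRL replicate 2 and 0.16 (SE 0.11, edgeR adjusted p = 0.295) without RBM5 OE replicate 1.

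ADAM15, a membrane ADAM that can bind integrins (ENSG00000143537.9, chr1:155023042-155035251, plus strand), was at 65.1, 67.0 and 62.3 CPM in RBM5 OE, 103.1, 74.5 and 78.4 CPM in RBM5 KO, and 71.5, 79.2 and 86.7 CPM in CTRL. The RBM5 OE libraries were below all others. The highest library of RBM5 KO was replicate 1 and the highest of CTRL was replicate 3, the 2 libraries that stood apart. RBM5 OE was 1.22-fold lower than CTRL (log2 fold change -0.29, SE 0.08, edgeR adjusted p = 0.0154) and 1.32-fold lower than RBM5 KO (-0.40, SE 0.12, edgeR adjusted p = 0.019). The call against CTRL was lost without RBM5 OE replicate 3 (-0.27, adjusted p = 0.0628) and kept without CTRL replicate 3 (-0.22, adjusted p = 0.0265). It was lost in 5 of 18 alternatives, among them the fit of all 9 libraries and limma on the log2 TPM scales. The call against RBM5 KO was lost in 5 of 21 alternatives, among them those without RBM5 OE replicate 1 (adjusted p = 0.0548) or RBM5 OE replicate 3 (adjusted p = 0.0771). Without both libraries that stood apart, the value against RBM5 KO was -0.23 (adjusted p = 0.017). RBM5 KO and CTRL overlapped, with a log2 fold change of 0.11 (95% interval -0.19 to 0.41, edgeR adjusted p = 0.731).

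ADAM19, a membrane ADAM known from heart and muscle (ENSG00000135074.11, chr5:156822542-157002783, minus strand), had 0 counts in all 9 libraries. A count of 0 allows up to 3 counts, which is 0.108 to 0.118 CPM at these depths, counting error only. The GC content of its window before the start (76.4%) was within the range of the 4 other windows (68.4% to 79.6%).

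ADAMTS1 ran opposite to ADAM28 and its neighbour in RBM5 OE. This secreted protease (ENSG00000154734.10, chr21:28208074-28217728, minus strand) was at 9.80, 10.9 and 9.90 CPM in RBM5 OE, 66.9, 100.2 and 105.3 CPM in RBM5 KO, and 35.2, 38.3 and 25.9 CPM in CTRL. No 2 groups overlapped, and the order was RBM5 KO, CTRL, RBM5 OE. RBM5 OE was 3.24-fold lower than CTRL (log2 fold change -1.69, SE 0.14, edgeR adjusted p = 6.42e-06), a call that held in each of the 18 alternatives, with adjusted p up to 0.000914. RBM5 KO was 2.74-fold higher than CTRL (1.46, SE 0.19), the contrast used for the choice, and 1.48 (SE 0.10) without both libraries that stood apart. RBM5 OE was 8.90-fold lower than RBM5 KO (-3.15, SE 0.19). The genes most like ADAMTS1 over the 9 libraries, of 14753, were FSCN1 (r = 0.995), which encodes an actin-bundling protein, MSRB1 (0.993), a methionine sulfoxide reductase, SLC20A1 (0.992), a phosphate transporter, PHLDA2 (0.991) and HOMER3 (0.99). Of the other members, ADAM10 was closest to ADAMTS1 (r = 0.865), and ADAM9 was farthest (-0.786). ADAMTS1 was chosen for its high RBM5 KO values, on which these correlations also rest, and the 9 libraries are not 9 independent points.

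The closest gene with counts beside ADAMTS1 was its paralogue ADAMTS5, an aggrecanase whose gene lies 72512 bp away. ADAMTS5 was at 2.52, 2.86 and 1.90 CPM in RBM5 OE, 2.23, 3.28 and 3.90 CPM in RBM5 KO, and 2.24, 1.41 and 0.869 CPM in CTRL. Its groups overlapped in every comparison. The log2 fold change was 0.70 in RBM5 OE against CTRL (SE 0.33, edgeR adjusted p = 0.116) and 1.06 in RBM5 KO against CTRL (SE 0.36, edgeR adjusted p = 0.182). Without both libraries that stood apart, the value of RBM5 KO against CTRL was 0.98 (edgeR adjusted p = 0.0231).

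**Figure D4:**
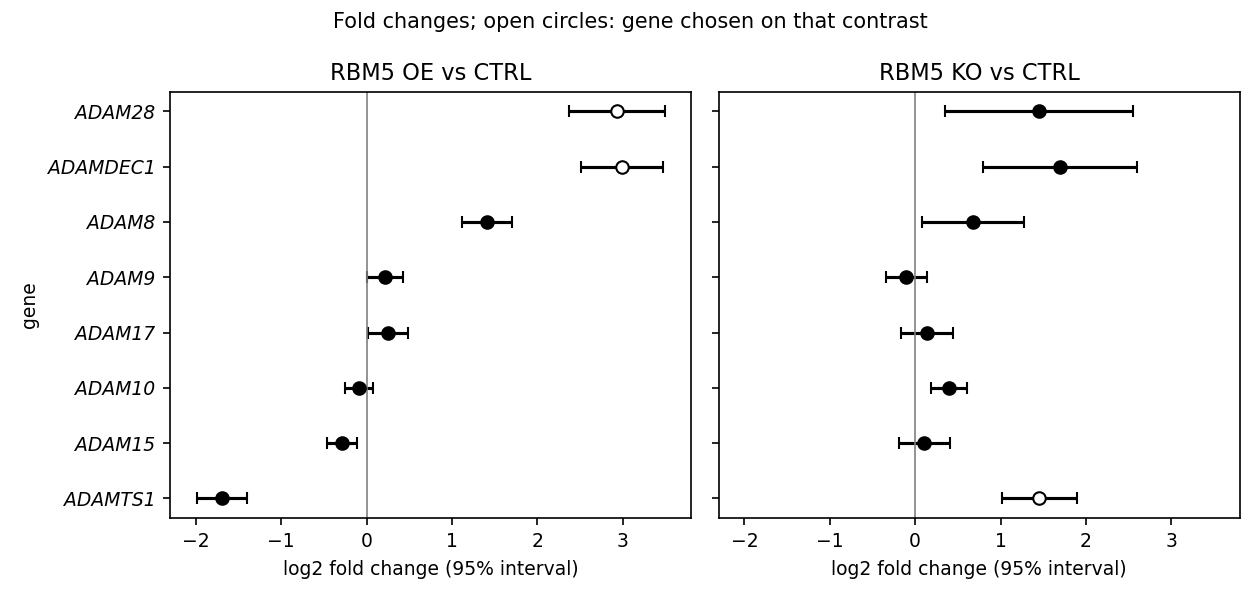
Log2 fold change with its 95% interval (edgeR) of the 8 tested members in RBM5 OE against CTRL (left) and in RBM5 KO against CTRL (right), which share the CTRL libraries. Open circles are genes chosen on that contrast, given without a test. ADAM8 (1.41) and ADAMTS1 (-1.69) stand out on the left among the filled circles, and the intervals are wider on the right.

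The counts of tested members leave out those chosen on the contrast concerned. In RBM5 OE against CTRL, 1 of 6 rose (ADAM8) and 2 of 6 fell (ADAM15 and ADAMTS1), where 40.1% of all 14370 genes tested were called (19.8% higher and 20.2% lower). The groups of these 3 members did not overlap, as was so for 51.7% of all genes. In RBM5 KO against CTRL, edgeR's quasi-likelihood test called 0 of 7, where it called 2.51% of 14218 genes (0.837% higher and 1.67% lower). DESeq2 called 2 of the 7 higher (ADAM10 and ADAMDEC1). In CPM, the groups of ADAM10 and ADAMDEC1 did not overlap there, as was so for 22.9% of all genes. DESeq2 called 2.41% of all genes higher. Without RBM5 KO replicate 1, ADAM8, ADAM10, ADAM28 and ADAMDEC1 were called higher by edgeR, a fit in which 3.88% of 14544 genes were called higher. ADAM28 and ADAMDEC1 were chosen on a contrast that shares these CTRL libraries, so the choice also favours higher values of both in RBM5 KO against CTRL. Between RBM5 OE and RBM5 KO, 2 of 5 were higher (ADAM8 and ADAM9) and 2 of 5 lower (ADAM10 and ADAM15), where 40.1% of 14754 genes were called (19.5% higher and 20.6% lower). The groups of these 4 did not overlap, as was so for 52.6% of all genes. A share of called members close to that of all genes says nothing particular about the family.

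The wider metalloprotease families were mostly silent in MOLM13. Of 13 further ADAM genes, 3 passed the filter on low counts in RBM5 OE against CTRL, and ADAM22, a catalytically inactive ADAM known from the nervous system, rose 2.41-fold (edgeR adjusted p = 0.000157). ADAM22 was at 6.95, 7.45 and 7.24 CPM in RBM5 OE, against 2.47, 3.16 and 3.36 CPM in CTRL, without overlap. In TPM the libraries overlapped, at 1.15, 1.3 and 1.59 in RBM5 OE and 0.7, 0.64 and 1.24 in CTRL. Of 24 ADAMTS and ADAMTS-like genes other than ADAMTS1, 9 were tested there, 2 rose and 2 fell. Of all genes tested there, 19.8% were higher and 20.2% lower. ADAMTS14, a procollagen N-propeptidase, was at 19.7, 23.0 and 20.7 CPM in RBM5 OE, against 5.46, 6.01 and 1.89 CPM in CTRL (4.76-fold, log2 fold change 2.25, SE 0.28, edgeR adjusted p = 9.9e-05). ADAMTS10, which binds fibrillin, was 1.89-fold higher (edgeR adjusted p = 0.00574). Its libraries overlapped in TPM, at 4.16 to 6.42 in RBM5 OE and 1.65 to 4.87 in CTRL. PAPLN, papilin, was 1.36-fold lower (edgeR adjusted p = 0.000958). ADAMTS1 and ADAMTS14 thus moved in opposite directions within the secreted branch.

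Of 23 matrix metalloproteases, 8 were tested in RBM5 OE against CTRL, 2 rose and 2 fell, beside 19.8% of all genes higher and 20.2% lower. The gelatinase MMP2 was at 5.05, 4.87 and 5.50 CPM in RBM5 OE, against 1.77, 2.85 and 2.61 CPM in CTRL (2.13-fold, edgeR adjusted p = 0.00153). MMP25, a membrane-anchored protease of neutrophils, was 1.54-fold higher (edgeR adjusted p = 0.0342), a call lost without CTRL replicate 3 (log2 fold change 0.45, adjusted p = 0.065). The membrane-type MMP15 was 2.59-fold lower (edgeR adjusted p = 0.000139) and MMP17 1.41-fold lower (edgeR adjusted p = 0.000792). Without CTRL replicate 3, 1 matrix metalloprotease rose and 4 fell, where 20.7% of 14704 genes were higher and 21.2% lower. The inhibitors TIMP1, TIMP2 and RECK had edgeR adjusted p-values of 0.829, 0.389 and 0.677 in this comparison. The median log2 fold change was 0.07 over the tested ADAMTS list and -0.09 over the matrix metalloproteases, beside 0.01 over all genes.

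Genes that work with the members were described the same way. Beside their counts, 19.8% of all 14370 genes tested were called higher and 20.2% lower in RBM5 OE against CTRL. Of 10 trafficking partners of ADAM10 and ADAM17, 6 were tested in RBM5 OE against CTRL and 3 fell: TSPAN14 (1.19-fold, edgeR adjusted p = 0.0314, and 0.0501 without CTRL replicate 3) and TSPAN17 (1.27-fold, edgeR adjusted p = 0.0131), tetraspanins that bring ADAM10 to the surface, and FRMD8 (1.19-fold, edgeR adjusted p = 0.023), which stabilises the iRhom complex of ADAM17. RHBDF2 (iRhom2) had a log2 fold change of -0.08 (edgeR adjusted p = 0.558). Of 42 surface proteins that ADAM10 or ADAM17 shed, 31 were tested, 12 rose and 5 fell in RBM5 OE. The adhesion receptor ICAM1 rose 5.43-fold (171.2, 180.5 and 191.2 CPM in RBM5 OE, against 37.2, 38.6 and 24.5 CPM in CTRL; edgeR adjusted p = 7.83e-07) and NOTCH2 1.55-fold (edgeR adjusted p = 0.000101), while TNFRSF8 (CD30) fell 5.89-fold (edgeR adjusted p = 1.21e-05). In RBM5 KO against CTRL, 1 of these 31 rose and none fell, where 0.837% of 14218 genes were higher and 1.67% lower. Without both libraries that stood apart, 13 rose and 1 fell, where 6.94% of 14381 genes were higher and 6.68% lower. Of 10 adhesion partners of ADAM8 and ADAM28, 8 were tested, and the leukocyte integrin chains ITGAM (1.53-fold, edgeR adjusted p = 0.00386) and ITGB2 (1.23-fold, edgeR adjusted p = 0.00555) rose in RBM5 OE while ITGAV fell (1.26-fold, edgeR adjusted p = 0.0275). ITGAM was 1.55-fold higher in RBM5 KO than in CTRL, which was not called (edgeR adjusted p = 0.318). Without both libraries that stood apart, a choice made on these same data, its log2 fold change was 0.77 (edgeR adjusted p = 2.7e-06).

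Of 11 proteoglycans and other substrates of ADAMTS1, 6 were tested in RBM5 OE against CTRL, 2 rose and 1 fell. The shares over all genes were 19.8% higher and 20.2% lower. Versican (VCAN), its classical substrate, was at 1.32, 1.52 and 1.21 CPM in RBM5 OE, 16.6, 28.8 and 27.5 CPM in RBM5 KO, and 5.18, 5.15 and 2.65 CPM in CTRL. Its groups did not overlap and stood in the same order as those of ADAMTS1. VCAN was 3.19-fold lower in RBM5 OE than in CTRL (log2 fold change -1.67, SE 0.28, edgeR adjusted p = 0.000776) and 5.61-fold higher in RBM5 KO than in CTRL (2.49, SE 0.29, edgeR adjusted p = 0.00533). Thrombospondin 1 (THBS1) is one of the 2 that rose, but it passed the filter on low counts only through RBM5 OE. It had 27, 22 and 25 counts in RBM5 OE, 3 in each RBM5 KO library, and 2, 6 and 2 counts in CTRL. No fold change of THBS1 is therefore given, and its call in the count of 2 is not a result. Syndecan 4 (SDC4) was 1.36-fold higher (edgeR adjusted p = 0.00134).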

How the data were processed

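RNA-seq of 9 MOLM13 libraries (3 groups, 3 biological replicates each) was re-analysed from 2 gene tables. Per the labels, the authors used Trim Galore for adapter trimming, STAR 2.7.1a for alignment (GRCh37, hg19), GATK 4.1.2.0 for marking duplicates and RSEM for quantification. As deposited by the authors, expected count values are unscaled RSEM estimates. As deposited by the authors, TPM values are RSEM abundances scaled by length and library. Counts were taken without strand. 92 spike-in entries at 0 were left out.

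Expected counts were rounded and tested in R 4.3.3 with edgeR 4.0.16 (filterByExpr, TMM, quasi-likelihood test). The p-values were adjusted by Benjamini-Hochberg across every gene tested, with 0.05 as the threshold for a call. Each comparison with CTRL was fitted on its 6 libraries and RBM5 OE against RBM5 KO on all 9. All adjusted p-values are from edgeR unless DESeq2 1.42.0 or limma 3.58.1 is named. Log2 CPM for correlations used a prior count of 2. The members, gene lists and tests were chosen with earlier results of these data known. Named genes were all members, the 5 most correlated genes and the annotated genes within 500000 bp. From each list, the 4 tested genes with the smallest p in any comparison could be named, and not all of them are given. Genes called in at least 1 comparison but left out include ECE1, ECE2, CD46 and ADAMTS7. The lists of proprotein convertases and of other surface metallopeptidases were tested but are not described above. The script was tested on simulated data. p-values measure the spread between these cultures.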

Additional observations from a re-analysis of the deposited data

How the results depend on the processing

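Depth (25522952 to 27871988 counts) limits ADAM28 and ADAMDEC1 most, since CTRL held 13 to 28 reads of each. No direction was reversed for a called value. RLE scaling, library totals, a CPM minimum of 1 and limma-voom left every count of called members as it was. In RBM5 OE against CTRL, 3 members in place of 1 rose with no filter on low counts and with a replicate block. All genes called higher numbered 3070 of 23776 with no filter and 2689 of 14370 with the block, beside 2847 of 14370 in the main fit. In the same comparison, 1 in place of 2 fell with all 9 libraries in 1 fit and on log2(TPM + 1), log2(TPM + 0.1) or log2(TPM + 1) with a mean of at least 1. All genes called lower numbered 2405 of 14754, 1771 and 1773 of 14370 and 1717 of 12886 in those settings, beside 2909 of 14370. In RBM5 KO against CTRL, 2 in place of 0 rose with no filter, with all 9 libraries in 1 fit and with DESeq2, and 4 without CTRL replicate 3 and RBM5 KO replicate 1 together. All genes called higher numbered 264 of 23639, 378 of 14754, 342 of 14218 and 998 of 14381 in those settings, beside 119 of 14218 in the main fit. Between RBM5 OE and RBM5 KO, 1 in place of 2 was higher and 0 in place of 2 were lower on the 3 TPM scales. On those scales 2380 to 2577 genes were called higher and 1912 to 1957 lower, of 12847 or 14754. The main fit had 2878 higher and 3042 lower, of 14754. The cause was not tested.

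Leaving out 1 library, 1 to 3 members rose and 1 to 2 fell in RBM5 OE against CTRL, 0 to 4 rose and 0 fell in RBM5 KO against CTRL, and 0 to 2 were higher and 1 to 2 lower between RBM5 OE and RBM5 KO. In these fits, of 14484 to 15090 genes tested, 2048 to 3044 rose and 2136 to 3117 fell in RBM5 OE against CTRL. In RBM5 KO against CTRL, 9 to 565 rose and 18 to 549 fell. Between RBM5 OE and RBM5 KO, 2234 to 2957 were higher and 2330 to 3178 lower. On log2(TPM + 1) the RBM5 OE against CTRL values of ADAM28 and ADAMDEC1 shrank to 1.64 and 1.78, since the pseudocount is above their CTRL level. Same-numbered libraries correlated at -0.242 to 0.0989, so the numbers do not pair the samples. Under the replicate block, ADAM9 (adjusted p = 0.0433) and ADAM17 (adjusted p = 0.0309) were called in RBM5 OE against CTRL.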
